A study of Homo sapiens with 29 samples.

Results

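The late change that followed ZNF148 knockdown was measured in LHCN-M2 cells kept in growth media, as the difference between 96 and 48 h after transfection. LHCN-M2 is a line of human skeletal myoblasts, the precursor cells of muscle fibers, that was immortalized by expression of telomerase and CDK4 and goes back to 1 clone that was picked, so that all cells share that origin. All cells here received 20 nM siRNA against ZNF148, a zinc finger transcription factor, and were confluent at harvest. The 3 arrays labelled siZNF148, growth media, 96 h and the 3 labelled siZNF148, growth media, 48 h were chosen by these labels, and make up 6 of the 29 arrays of the series. The labels call the arrays of a group biological replicates. Where a result is set against other cells, these are 6 arrays of ZNF148 siRNA in differentiation media, with 3 at 48 h and 3 at 96 h, and 5 arrays of 20 nM nontargeting siRNA in growth media, with 3 at 48 h and 2 at 96 h. Hours in differentiation media count from the change of media, so the same hour in both media is not the same time since transfection.

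Type I interferons are secreted proteins that cells make when sensors such as RIG-I, MDA5 or TLR3 meet foreign or misplaced nucleic acid. They bind IFNAR1 and IFNAR2, and the kinases JAK1 and TYK2 then activate a complex with STAT2 and IRF9, which binds the interferon-stimulated response element in the promoters of antiviral genes. Myoblasts that differentiate leave the cell cycle, silence genes of mitosis and build the contractile apparatus. These are known features of the pathway and of the cell type, and not results of these arrays.

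To show the DNA next to some of the genes that rose most, the 250 bases before the start of each gene in RefSeq promoters (GRCh38.p14) were searched on both strands. The search was for the core of the interferon-stimulated response element, GAAA followed by any 2 bases and GAAA. The lines below end at the last base before the start of the gene and are written 5′ to 3′ on the strand of the gene, with the core and any overlapping repeat of it in capitals.
ISG15, chr1:1013377-1013496, plus strand: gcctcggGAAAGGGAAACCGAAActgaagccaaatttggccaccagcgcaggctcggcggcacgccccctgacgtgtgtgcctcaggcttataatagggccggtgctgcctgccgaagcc
IFI6, chr1:27672193-27672352, minus strand: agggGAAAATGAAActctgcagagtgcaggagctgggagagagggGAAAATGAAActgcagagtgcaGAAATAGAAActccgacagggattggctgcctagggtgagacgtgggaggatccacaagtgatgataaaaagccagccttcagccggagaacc
BST2, chr19:17405631-17405765, minus strand: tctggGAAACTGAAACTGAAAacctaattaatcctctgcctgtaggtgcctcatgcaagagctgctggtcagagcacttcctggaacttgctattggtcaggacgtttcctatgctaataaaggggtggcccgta
IFI44L, chr1:78620278-78620447, plus strand: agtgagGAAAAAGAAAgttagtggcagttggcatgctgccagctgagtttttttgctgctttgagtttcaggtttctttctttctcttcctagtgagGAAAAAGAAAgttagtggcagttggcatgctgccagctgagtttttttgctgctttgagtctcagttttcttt
RTP4, chr3:187368335-187368384, plus strand: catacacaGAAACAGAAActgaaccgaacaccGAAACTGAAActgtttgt
The core was present in 21 of the 32 interferon-stimulated effector genes with a promoter in the table (65.6%), in 311 of 12256 tested genes with one (2.54%) and in 839 of all 27305 promoters (3.07%). Among genes called higher at 96 h it was present in 57 of 541 (10.5%), and among genes called lower in 8 of 267 (3.00%). The 5 genes shown each held at least 2 matches and are not a sample of the rises. MX1 and OAS1, which rose further than these 5, had no match in this window, and MX2, which also rose further, is not shown. A match is a description of letters and not a bound site.

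The targeted gene did not differ between the times beyond the spread of the arrays. The log2 signals of ZNF148 were 6.91, 6.90 and 6.53 at 48 h and 6.76, 6.93 and 6.64 at 96 h, where log2 signal is the quantile-normalized array intensity on the log2 scale. The 2 sets of values overlapped. The change was -0.003 ± 0.13 with an adjusted p of 0.99 (limma). With nontargeting siRNA the same probe read 8.51, 8.85 and 9.19 at 48 h and 8.98 and 9.18 at 96 h, above each of the 6 knockdown arrays.

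Of 15816 genes tested, 732 were called higher (4.63%) and 352 were called lower (2.23%) at 96 h than at 48 h. These shares are the background for each count of list members below. A call here is a Benjamini-Hochberg adjusted p under 0.05 in limma together with a change of more than 2-fold, and each gene is given by its brightest tested probe. The rises were the larger changes, with 208 genes up and 32 down by more than 4-fold, and 73 up and 1 down by more than 8-fold. Over all tested genes the median change was 0.00 and the quartiles were -0.22 and 0.24. The 3 arrays at 96 h did not overlap the 3 at 48 h in 54.5% of genes, so that absence of overlap alone is common in this comparison. On the slide that held 3 of the 6 arrays and on the slide that held 2, all 352 falls and 731 of the 732 rises had the same direction, and 269 falls and 609 rises exceeded 2-fold on both. The genes were called from these same arrays, so such agreement was largely set by the selection and is not separate evidence. The RNA was taken from whole cultures, so fewer cells expressing a gene and less RNA per cell cannot be told apart.

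Interferon-related genes were frequent among the largest rises. With all called rises ranked by size, the 4 lists of interferon-related genes (effectors, gamma-type targets, nucleic acid sensors, and ligands, receptors and regulators) held 10 of the 15 largest, 28 of the 50 largest, 34 of the 100 largest and 65 of all 732. Their tested members numbered 40, 13, 16 and 21 in that order, among 15816 genes tested. These lists do not hold every interferon-inducible gene. Outside them, called rises were found among cytokines, secreted factors, matrix and muscle genes, and called falls among genes of mitosis, HLA class II and sterol synthesis. The ranking in this paragraph used no further filter. Elsewhere, the 15 largest rises and falls are limited to genes well above background on all arrays compared and without overlap between the times. RSAD2 was left out of them by this filter.

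**Figure D1:**
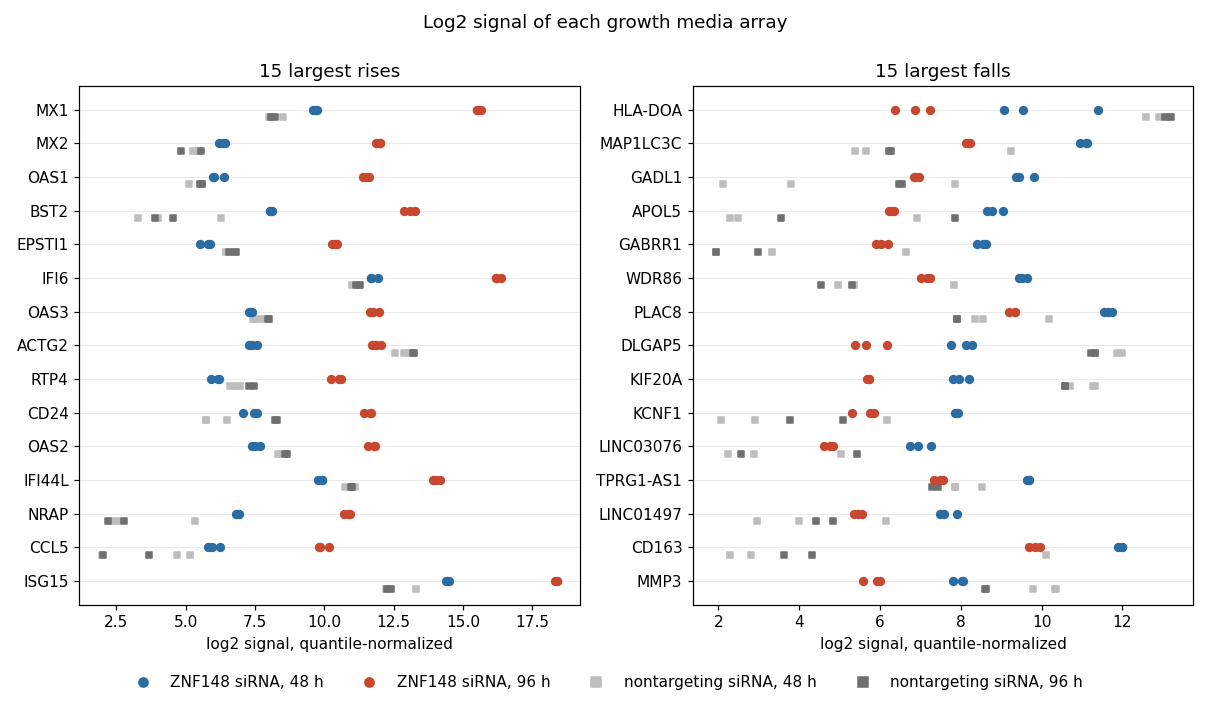
Log2 signal (x axis, quantile-normalized) on each growth media array, with circles for ZNF148 siRNA and squares for nontargeting siRNA. Rows are the 15 largest rises and the 15 largest falls that passed a filter. It required signal well above background on every ZNF148 siRNA array drawn and no overlap between 48 and 96 h. The gap between the 3 circles at 96 h and the 3 at 48 h was therefore set by this choice. MX1 moves from 9.61-9.74 to 15.5-15.6.

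The interferon-stimulated effectors, the proteins that block viral entry, translation or replication, rose as a whole list. Of 43 listed, 40 were tested and all 40 were called higher, against 4.63% of all genes, with a median change of 3.46. On all 6 arrays 37 of them were well above background, so that for 3 the early level was at or near background. MX1, a dynamin-like GTPase that traps viral nucleocapsids, read 9.74, 9.61 and 9.68 at 48 h and 15.64, 15.50 and 15.49 at 96 h. All 3 late arrays were far above the early ones, by 5.87 ± 0.21 or 58.4-fold (adjusted p = 2.76e-09). ISG15, the ubiquitin-like modifier, read 14.44, 14.38 and 14.51 at 48 h and 18.40, 18.40 and 18.32 at 96 h. Its change was 3.93 ± 0.11 (adjusted p = 6.13e-10), and the arrays of each time lay close together. IFI6, a small mitochondrial and endoplasmic reticulum protein, went from 11.69, 11.67 and 11.95 to 16.37, 16.19 and 16.18, a change of 4.48 ± 0.18 (adjusted p = 7.04e-09). The groups were separated by over 4 units on the log2 scale.

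The other effectors among the 15 largest rises followed the same pattern. MX2, the nuclear pore relative of MX1, changed by 5.64 ± 0.28 and BST2, or tetherin, which holds budding virus at the cell surface, by 5.02 ± 0.57. The 3 oligoadenylate synthetases, enzymes switched on by double-stranded RNA, changed by 5.39 ± 0.25 for OAS1, 4.46 ± 0.14 for OAS3 and 4.21 ± 0.18 for OAS2. EPSTI1 changed by 4.64 ± 0.30, RTP4 by 4.35 ± 0.13 and IFI44L by 4.17 ± 0.12, with adjusted p of at most 3.08e-05 for these 8 genes. RSAD2, or viperin, which makes a chain-terminating nucleotide, read 4.90, 4.99 and 3.43 at 48 h and 10.41, 10.37 and 10.02 at 96 h. It was well above background on 1 of 3 arrays at 48 h, and its fitted change was 5.83 ± 0.33 (adjusted p = 9.74e-08). The smallest change of the list was that of LGALS3BP, 1.13 ± 0.13.

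In the signaling chain upstream of these genes, some members rose and others did not pass the call. IRF7, the factor that amplifies interferon production, read 12.22, 12.42 and 12.43 at 48 h and 15.62, 15.59 and 15.52 at 96 h, a change of 3.22 ± 0.08 (adjusted p = 2.35e-10). STAT2 changed by 1.87 ± 0.07 and IRF9 by 2.39 ± 0.13. All 3 are themselves interferon-inducible, and in each of them the 3 late arrays lay above the 3 early ones. IFNB1, the gene of interferon beta, was not well above background on any array at 48 h and was so on all 3 at 96 h, with signals of 2.19, 2.14 and 3.53 and 4.80, 5.66 and 5.53. It was at least 2.1-fold higher at 96 h, counted from the lowest signal well above background on the 48 h arrays, and the fitted difference had an adjusted p of 0.00333. With normexp background correction this call was lost, with a change of 0.53.

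Among receptors, kinases and their inhibitor, IFNLR1 alone was called. IFNAR1 changed by 0.48 ± 0.12 and IFNAR2 by -0.91 ± 0.06, both short of the 2-fold rule. IFNLR1, the receptor chain for interferon lambda, fell from 7.55, 7.59 and 7.99 to 5.88, 6.05 and 5.67, a change of -1.84 ± 0.15 (adjusted p = 2.01e-06). JAK1 changed by 0.15 ± 0.09, TYK2 by 0.46 ± 0.11, IRF3 by 0.39 ± 0.09 and SOCS1 by -0.41 ± 0.08, none of them called. In all, 5 of 21 ligands, receptors and regulators were called higher and 1 lower, with a median of 0.46. IFNE, IFNG, IFNK, IFNL1 and IFNL3 were too dim to be tested.

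Of 16 sensors of double-stranded RNA and DNA, 9 were called higher and none lower, with a median of 1.18. IFIH1, which encodes MDA5, went from 9.33, 9.47 and 9.31 to 13.39, 13.34 and 13.17, a change of 3.93 ± 0.11 (adjusted p = 6.51e-10). ZBP1 changed by 3.31 ± 0.19, TLR3 by 3.11 ± 0.14, DHX58 by 3.02 ± 0.10 and RIGI, the gene of RIG-I, by 2.64 ± 0.10. These are interferon-inducible sensors, and none of their late arrays overlapped the early ones. The adaptors MAVS and STING1, by contrast, changed by -0.03 ± 0.05 and -0.26 ± 0.08, and the kinase TBK1 by 0.34 ± 0.10, none past the 2-fold rule. Of 13 gamma-type targets, 11 were called higher with a median of 2.11, led by IDO1, the tryptophan-degrading enzyme, with 2.78 ± 0.18, by GBP5 with 2.43 ± 0.59, APOL2 with 2.41 ± 0.06 and CD274, the checkpoint ligand PD-L1, with 2.38 ± 0.18.

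**Figure D2:**
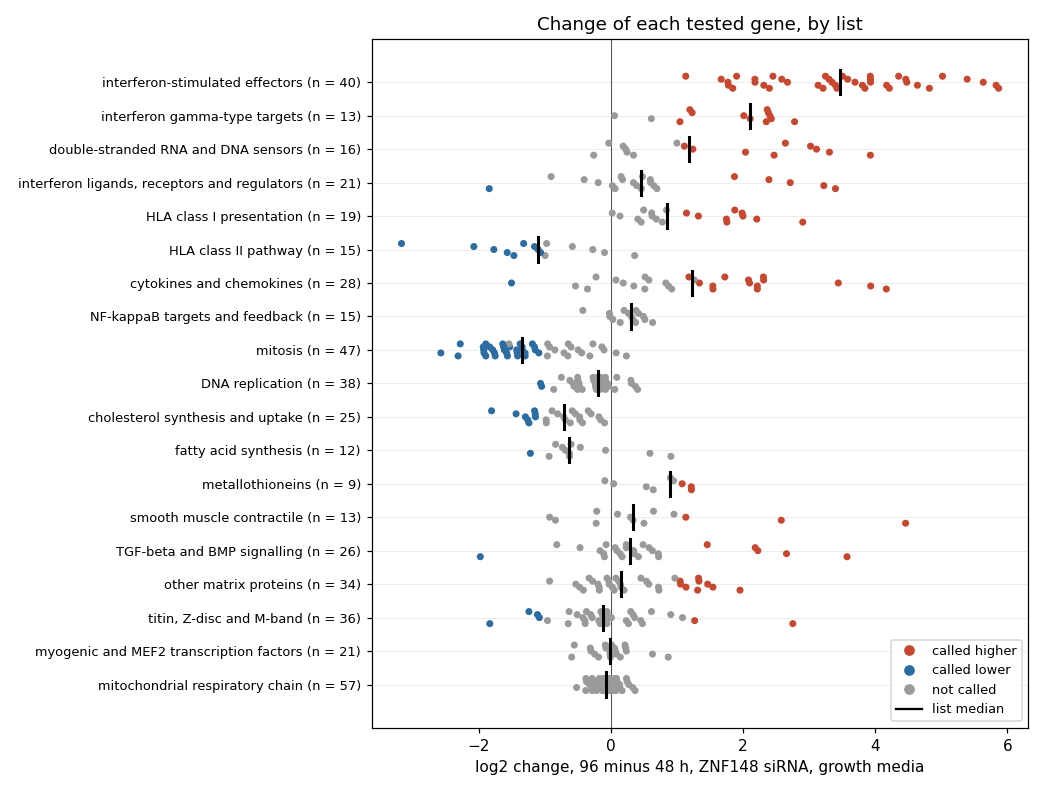
Log2 change between 96 and 48 h (x axis) of every tested gene of 19 lists (rows), with called rises in red, called falls in blue, genes not called in grey and a black line at each list's median. Effectors lie wholly to the right with a median of 3.46, mitosis genes mostly to the left with a median of -1.34, and the myogenic factors and respiratory chain genes stay around 0.

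The branches of antigen presentation, both of which interferon can raise, held calls in opposite directions. Of 19 genes of HLA class I presentation, 9 were called higher and none lower, with a median of 0.84. TAP1, a subunit of the peptide transporter, went from 12.14, 12.11 and 12.07 to 15.07, 15.04 and 14.92, a change of 2.90 ± 0.06 (adjusted p = 1.83e-10). The immunoproteasome subunit PSMB9 changed by 2.21 ± 0.09, TAP2 by 1.98 ± 0.09, and NLRC5, the coactivator of class I genes, by 2.00 ± 0.22, although the other probe of NLRC5 changed by 0.98. HLA-B changed by 1.75 ± 0.08 and B2M, the light chain of class I molecules, by 1.32 ± 0.07. HLA genes have near-identical copies that can share probes, so single HLA genes are uncertain, and the probes of HLA-E read between 0.14 and 1.87.

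Of 15 genes of the class II pathway, none was called higher and 9 were called lower, with a median of -1.10. HLA-DRA, the alpha chain of the HLA-DR dimer, went from 9.32, 9.42 and 9.14 at 48 h to 6.75, 7.52 and 7.39 at 96 h, a change of -2.08 ± 0.20 (adjusted p = 7.03e-06). The 2 groups were well apart, and the nontargeting arrays stood higher than both, at 12.53, 13.13 and 13.08 at 48 h and 12.89 and 12.84 at 96 h. HLA-DMB, which helps load peptide, changed by -1.77 ± 0.34, HLA-DQA1 by -1.57 ± 0.31 and CD74, the class II chaperone, by -1.32 ± 0.33. The CD74 call was lost without replicate 2 at 96 h (change -0.88) and in a fit of the 6 arrays alone. With normexp correction 5 class II genes were called lower in place of 9, and the changes were -0.87 for HLA-DMB, -0.38 for HLA-DQA1 and -0.26 for CD74. HLA-DOA, a modulator of peptide loading, read 11.39, 9.54 and 9.07 at 48 h and 6.38, 7.23 and 6.88 at 96 h. Replicate 1 stood above the other 2 at 48 h, and the change of -3.17 ± 0.47 (adjusted p = 0.000242) was the largest fall of all, but a second probe of the gene changed by 0.00. CIITA, the master coactivator of class II genes, was near background in the knockdown cells with 3.96, 5.20 and 3.79 and 5.12, 3.91 and 3.63, and read 9.06, 9.61 and 9.82 and 9.51 and 9.53 with nontargeting siRNA.

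**Figure D3:**
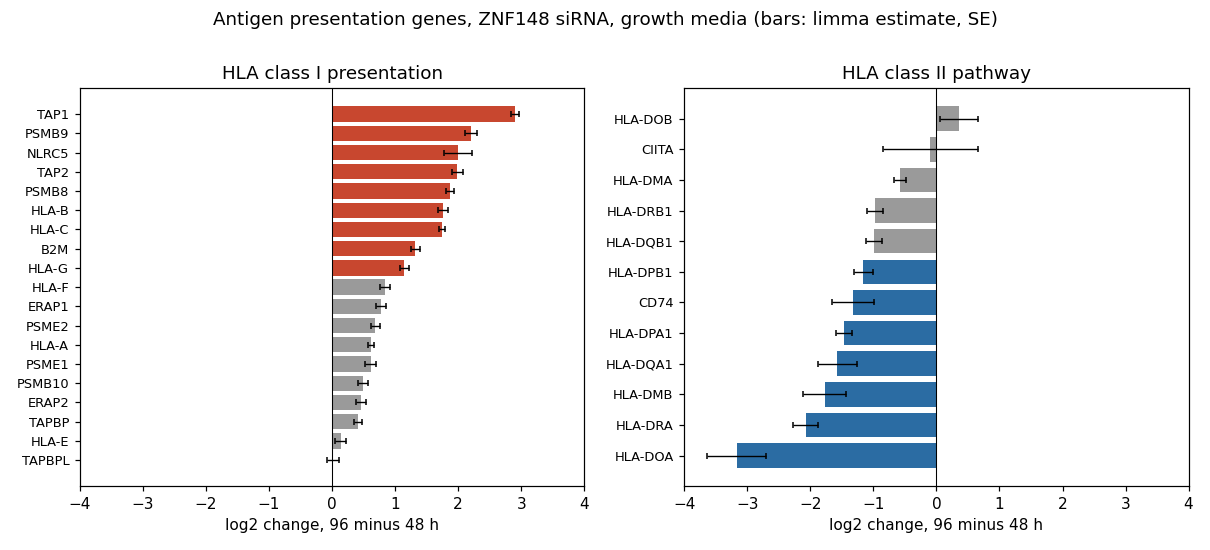
Log2 change between 96 and 48 h (x axis, bars with limma standard errors) of genes of HLA class I presentation (left) and of the class II pathway (right), with called rises in red, called falls in blue and others in grey. TAP1 leads class I at 2.90 and HLA-DOA ends class II at -3.17; paralogs of HLA-DRB1 with shared sequence are not drawn.

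Cytokines rose more often than they fell, with 14 of 28 called higher, 1 lower and a median of 1.22. Of these 14, 9 were well above background on all 6 arrays. With the 4 members that were dim at 48 h set to their bound, the median was 0.90. CXCL10, a chemokine that draws activated lymphocytes, was above background on none of the 48 h arrays and read 7.26, 7.44 and 7.16 at 96 h. It was at least 8.16-fold higher (adjusted p = 2.08e-06). CCL5, another lymphocyte chemokine, went from 5.79, 5.97 and 6.24 to 10.16, 9.80 and 9.83, a change of 3.93 ± 0.26 (adjusted p = 3.84e-07). TNFSF10, the death ligand TRAIL, was dim on all arrays at 48 h and at least 6.75-fold higher at 96 h (adjusted p = 0.000248). LIF, an interleukin-6 family cytokine made by muscle, changed by 2.31 ± 0.09 (adjusted p = 3.75e-09).

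IL6, the myokine, read 7.58, 7.36 and 7.25 at 48 h and 8.80, 9.13 and 8.89 at 96 h, a change of 1.54 ± 0.16 (adjusted p = 1.19e-05). The late arrays were above both sets of nontargeting arrays, which read 7.93, 8.15 and 8.44 and 8.25 and 8.14, and the early ones were below them. CCL2, the monocyte chemokine, changed by 2.22 ± 0.10 and also by 1.94 between 96 and 48 h of nontargeting siRNA (1.85 without nontargeting replicate 1 at 48 h). The difference of 0.28 between these changes had an adjusted p of 0.786 (0.37 and 0.709 without it). CCL20 was the cytokine called lower, with -1.50 ± 0.13. Of 15 NF-kappaB targets and feedback genes, none was called in either direction and the median was 0.31.

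Most genes of mitosis, the last step of the cell cycle, fell. Of 47 tested, 30 were called lower, against 2.23% of all genes, none was called higher, and the median was -1.34. DLGAP5, a spindle protein, went from 8.27, 8.12 and 7.76 to 5.38, 6.18 and 5.64, a change of -2.31 ± 0.22 (adjusted p = 8.85e-06). KIF20A, a kinesin of cytokinesis, went from 8.21, 7.96 and 7.82 to 5.73, 5.73 and 5.68, a change of -2.28 ± 0.14 (adjusted p = 2.53e-07). In both genes all nontargeting arrays lay above all knockdown arrays, with 11.23 to 11.98 for DLGAP5 and 10.6 to 11.3 for KIF20A.

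CDC25C, the phosphatase that starts mitosis, read 5.06, 5.68 and 4.56 at 48 h. On no array at 96 h was it well above background, and it was at least 2.56-fold lower (adjusted p = 2.83e-06). CCNB2, a mitotic cyclin, changed by -1.93 ± 0.23, BIRC5, or survivin, by -1.89 ± 0.10, CDK1 by -1.61 ± 0.19, TOP2A by -1.76 ± 0.32 and MKI67, the proliferation marker Ki-67, by -1.37 ± 0.18. FOXM1, a transcription factor of mitotic genes, changed by -1.61 ± 0.28 (adjusted p = 0.000857). With normexp correction 14 mitosis genes were called lower in place of 30.

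Few DNA replication genes were called. Of 38 tested, 2 were called lower, against 2.23% of all genes, and the median was -0.20. They were CDC45, a part of the replicative helicase, with -1.07 ± 0.07, and UHRF1, which keeps DNA methylation through replication, with -1.05 ± 0.07, which fell short of 2-fold without replicate 3 at 48 h. PCNA, the sliding clamp of DNA polymerase, changed by -0.08 ± 0.07 and MCM2, of the same helicase as CDC45, by -0.17 ± 0.06. None of 22 p53 target genes was called. The replication-dependent histones were mixed, with 3 of 48 higher (6.25%) and 5 lower (10.4%), beside 4.63% and 2.23% of all genes.

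The promoters of 3 of the mitosis genes are shown because most promoters of this list held the CCAAT box, searched as CCAAT on both strands (so as CCAAT or ATTGG, in capitals). The lines end at the last base before the gene start, in GRCh38.p14.
KIF20A, chr5:138179012-138179111, plus strand: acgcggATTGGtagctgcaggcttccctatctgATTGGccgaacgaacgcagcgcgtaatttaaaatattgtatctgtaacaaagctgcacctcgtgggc
CCNB2, chr15:59105021-59105145, plus strand: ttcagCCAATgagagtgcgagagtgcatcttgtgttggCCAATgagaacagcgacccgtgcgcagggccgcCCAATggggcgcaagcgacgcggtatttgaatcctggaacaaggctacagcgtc
DLGAP5, chr14:55191586-55191685, minus strand: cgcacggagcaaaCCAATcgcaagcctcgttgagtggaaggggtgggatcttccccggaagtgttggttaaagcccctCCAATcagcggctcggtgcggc
The box was found in 31 of 40 mitosis promoters (77.5%) against 34.6% of promoters of tested genes and 33.0% of all. TTTGAA, the letters of the cell cycle genes homology region, was in 22 of the 40 (55.0%), against 9.22% and 13.6%. In the 32 DNA replication promoters the CCAAT box was found in 18 (56.2%) and TTTGAA in 1 (3.12%). The CCAAT box was not particular to mitosis genes. It was in 15 of 18 cholesterol promoters (83.3%) and 6 of 10 smooth muscle promoters (60.0%), and in 11 of 32 effector promoters (34.4%).

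Part of the cholesterol synthesis and uptake genes fell. Of 25 tested, 8 were called lower and none higher, against 2.23% and 4.63% of all genes, no member had a change above 0, and the median was -0.72. ACAT2, which makes acetoacetyl-CoA, went from 12.58, 12.67 and 12.36 to 10.78, 10.81 and 10.59, a change of -1.81 ± 0.08 (adjusted p = 1.92e-08). The late arrays also lay below all nontargeting arrays, at 12.06, 11.57 and 11.78 and 11.69 and 11.76. HSD17B7 changed by -1.44 ± 0.09, INSIG1, the sterol-sensing brake on the pathway, by -1.29 ± 0.10 and SQLE, squalene epoxidase, by -1.26 ± 0.10. Of 12 fatty acid synthesis genes, FADS2, a desaturase, was the one called lower, with -1.22 ± 0.07, and the median was -0.63. The sterol regulatory element letters TCACNCCAC were in 1 of 18 cholesterol promoters and in 0.875% of all.

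Ligands, antagonists and receptors of the TGF-beta and BMP family gave a few large calls. Of 26 tested, 5 were called higher (19.2%) and 1 lower (3.85%), with a median of 0.29, beside 4.63% and 2.23% of all genes. GREM1, an antagonist of bone morphogenetic proteins, went from 11.14, 10.96 and 10.81 to 13.46, 13.70 and 13.71, a change of 2.66 ± 0.12 (adjusted p = 1.11e-08). INHBA, the activin A subunit, changed by 2.22 ± 0.10, GDF6 by 2.18 ± 0.12 and BAMBI, a decoy receptor, by 1.46 ± 0.16. INHBB, the activin B subunit, was dim at 48 h and at least 7.4-fold higher at 96 h (adjusted p = 4.36e-06). TGFBR3, betaglycan, read 6.11, 8.94 and 6.36 at 48 h and 5.17, 4.94 and 5.37 at 96 h. Replicate 2 at 48 h stood far above the others, and the call (change -1.98 ± 0.57, adjusted p = 0.0179) was lost without replicate 2 at 96 h and in a fit of the 6 arrays alone.

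A minority of matrix genes rose. Of 34 matrix proteins other than collagens, 9 were called higher and none lower, led by the matricellular factor CCN2 with 1.95 ± 0.11, tenascin TNC with 1.54 ± 0.10, CCN1 with 1.46 ± 0.10 and periostin POSTN with 1.33 ± 0.09. Of 23 collagens, 5 were called higher, COL15A1 (1.74 ± 0.11), COL12A1 (1.25 ± 0.12), COL8A2 (1.15 ± 0.20), COL8A1 (1.12 ± 0.07) and COL19A1 (1.12 ± 0.15), while the main fibrillar chains COL1A1 and COL3A1 changed by 0.37 ± 0.06 and 0.04 ± 0.07. With normexp correction 3 collagens were called, COL8A2 changed by 0.39 and COL19A1 by 0.98. PLAUR, the urokinase receptor, went from 8.87, 8.86 and 8.92 to 10.08, 10.20 and 10.42, a change of 1.35 ± 0.09 (adjusted p = 3.77e-07). The late arrays lay nearer to the nontargeting arrays, which read 11.85, 12.41 and 12.20 and 11.95 and 11.91. The collagenase MMP1 changed by 2.09 ± 0.15 and the stromelysin MMP3 the other way, by -2.13 ± 0.14, and MMP3 also fell with nontargeting siRNA, with a change of -1.56 (-1.74 without nontargeting replicate 1 at 48 h).

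Of 13 genes of the smooth muscle contractile apparatus, 3 were called higher and none lower. ACTG2, the enteric smooth muscle actin, read 7.58, 7.30 and 7.39 at 48 h and 11.73, 12.04 and 11.88 at 96 h, a change of 4.46 ± 0.09 (adjusted p = 1.83e-10). The late arrays were 22-fold above the early ones and still below the nontargeting arrays, at 12.55, 12.86 and 13.10 and 13.22 and 13.21. CNN1, calponin, changed by 2.58 ± 0.47 and TAGLN by 1.13 ± 0.07, whereas ACTA2, the vascular actin, changed by -0.84 ± 0.07 and was not called. The promoter of ACTG2 is shown as it held a pair of CArG boxes, the site of serum response factor, in capitals, on the plus strand up to the last base before the gene start.
ACTG2, chr2:73892888-73893007, plus strand: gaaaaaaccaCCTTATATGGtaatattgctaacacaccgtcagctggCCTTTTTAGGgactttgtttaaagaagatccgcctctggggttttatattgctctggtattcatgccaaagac
CArG boxes were in 2 of 10 smooth muscle promoters, ACTG2 and MYLK, and in 1.14% of all promoters.

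A few metallothioneins, small proteins that bind zinc and copper, rose. Of 9 tested, 3 were called higher and the median was 0.90. MT2A went from 16.69, 16.41 and 16.43 to 17.54, 17.62 and 17.60, a change of 1.08 ± 0.08 (adjusted p = 1.35e-06). The nontargeting arrays read 18.07, 18.09 and 17.92 and 18.09 and 18.08, above all 6 knockdown arrays. MT1L and MT1B changed by 1.22 ± 0.06 and 1.22 ± 0.08, but the MT1 genes are near-identical and their probes may not tell them apart. When each array was scaled to its upper quartile the MT2A change was 0.88 and its call was lost.

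**Figure D4:**
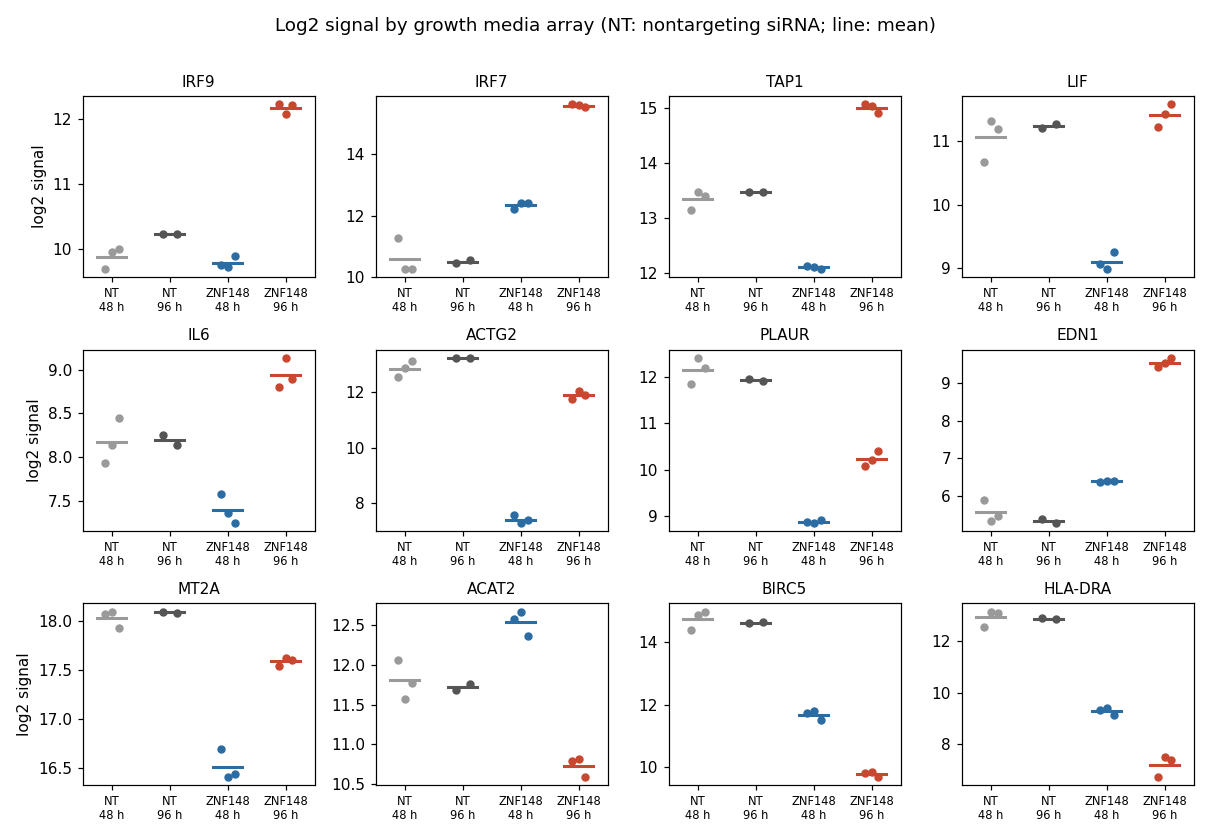
Log2 signal (y axis, a scale of its own for each gene) of 12 genes on each growth media array, with 1 point per array and a line at the group mean (NT, nontargeting siRNA). IRF9, IRF7, IL6 and EDN1 end above the nontargeting arrays at 96 h, ACTG2, PLAUR and MT2A rise but stay below them, and BIRC5, HLA-DRA and ACAT2 end below them.

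The myotube markers and the myogenic factors gave no calls. All 10 myotube markers were well above background on all 6 arrays. That alone does not mark a muscle cell, as 7 of 8 macrophage and 8 of 10 fibroblast markers also passed on some 48 h array. The label of a muscle cell fitted the signal level, since the mean of the next highest marker list, that of fibroblasts, was at most 9.09. None of the 10 myotube markers was called, and their mean log2 signal was 15.5 to 15.7 on the 48 h arrays and 15.7 on the 96 h arrays. MYOD1 and MYOG, the determination and differentiation factors, changed by -0.01 ± 0.05 and 0.23 ± 0.22, none of 21 myogenic and MEF2 factors was called, and MYH3, the embryonic myosin heavy chain, changed by -0.12 ± 0.08. CKM, muscle creatine kinase, read 17.27, 17.31 and 17.37 at 48 h and 17.34, 17.41 and 17.44 at 96 h. None of 57 genes of the mitochondrial respiratory chain was called.

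Single contractile genes moved in both directions. NRAP, an actin-anchoring protein of growing myofibrils, went from 6.82, 6.93 and 6.86 to 10.71, 10.85 and 10.91, a change of 3.95 ± 0.09 (adjusted p = 2.34e-10). The slow and cardiac myosin chains MYH6 and MYH7 changed by 1.86 ± 0.42 and 1.51 ± 0.18, the 2 called members of 10 heavy chains, and the slow light chain MYL2 by 1.50 ± 0.25. MYBPC1, the slow myosin-binding protein, changed by 2.75 ± 0.44 and CSRP3, muscle LIM protein, by 1.27 ± 0.05, while ANKRD2 changed by -1.83 ± 0.10, SMYD1 by -1.24 ± 0.06, SYNPO2 by -1.11 ± 0.12 and MYOZ2 by -1.08 ± 0.07. These were the 6 called among 36 genes of titin, Z-disc and M-band, 2 higher and 4 lower, where 4.63% of all genes were called higher and 2.23% lower. In a fit with all 29 arrays none of them was called higher and 1 lower. Of 28 genes of calcium handling 2 were called higher and 2 lower. SLN, the small inhibitor of the calcium pump, changed by 1.75 ± 0.08 and TRDN by 1.26 ± 0.07, and the fast pump ATP2A1 by -1.37 ± 0.14 and CAMK2B by -1.06 ± 0.15. In that fit of 29 arrays the calls of MYH7, MYL2, SLN, TRDN, ATP2A1 and CAMK2B were lost too.

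Of the 15 largest rises, CD24, a surface glycoprotein, has not been named so far. It went from 7.48, 7.07 and 7.58 to 11.44, 11.65 and 11.70, a change of 4.22 ± 0.12 (adjusted p = 6.80e-10), and changed by 2.26 with nontargeting siRNA (2.51 without nontargeting replicate 1 at 48 h). The rise was called with both siRNAs and was larger with ZNF148 siRNA by 1.95 (adjusted p = 2.36e-06), or by 1.70 without that array. IGFBP1, DLK1 and IGFBP2 were the 3 called of 23 IGF axis and imprinted genes, with 2.69 ± 0.23, 1.89 ± 0.21 and 1.60 ± 0.09. Among genes of fatty acid uptake and oxidation, ANGPTL4, the lipoprotein lipase inhibitor, changed by 2.80 ± 0.09 (adjusted p = 1.32e-09), PDK4 by 1.78 ± 0.20 and the fatty acid transporter CD36 by -1.27 ± 0.07. CPT1A changed by 1.13 ± 0.34, a call that was lost in 8 alternatives, among them leaving out replicate 1 or 3 at 48 h or replicate 2 or 3 at 96 h.

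Most of the 15 largest falls belonged to none of the lists. MAP1LC3C, a member of the LC3 family of autophagy proteins, went from 11.09, 10.95 and 11.12 to 8.24, 8.14 and 8.21, a change of -2.86 ± 0.10 (adjusted p = 1.39e-09). CD163, the scavenger receptor for hemoglobin, went from 11.981, 11.997 and 11.883 to 9.68, 9.95 and 9.84, a change of -2.13 ± 0.28 (adjusted p = 9.24e-05). Both were separated between the times on every array, which the rule for naming these genes required. GADL1, an amino acid decarboxylase, changed by -2.64 ± 0.27, APOL5 by -2.53 ± 0.27, the GABA receptor subunit GABRR1 by -2.49 ± 0.09, WDR86 by -2.38 ± 0.58, PLAC8 by -2.35 ± 0.08 and the potassium channel subunit KCNF1 by -2.25 ± 0.30. The noncoding transcripts LINC03076, TPRG1-AS1 and LINC01497 changed by -2.24 ± 0.36, -2.21 ± 0.10 and -2.21 ± 0.32. The adjusted p of these 9 genes was at most 0.00739.

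Nontargeting siRNA replicate 1 at 48 h stood apart from replicates 2 and 3 in many of these genes, so the counts below are given with and without it. It read 10.12 for CD163, against 2.28 and 2.80 on the others, and 16.03 against 5.83 and 5.91 for CKM. Nontargeting cells had 61 genes higher (0.386%) and 11 lower (0.0695%) at 96 than at 48 h, and 300 higher and 14 lower without that array. Of the genes called with ZNF148 siRNA, 21 rises and 4 falls were called in the same direction with nontargeting siRNA, or 37 and 3 without that array.

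The change from 48 to 96 h was tested against that of nontargeting cells as a difference of differences. Signed values were compared, so a deeper fall with ZNF148 siRNA counts as a lower change. The change was called higher with ZNF148 siRNA in 575 genes (3.64%) and lower in 331 (2.09%), or in 610 and 644 without replicate 1. Of the 732 rises, 482 were among them with either set of arrays, and of the 352 falls, 180 with all arrays and 272 without replicate 1. For interferon-stimulated effectors the change was higher in 39 of 40 with either set, and the nontargeting median was 0.06. For mitosis genes it was lower in 27 of 47 with either set, with a median of -1.34 against -0.10 in nontargeting cells. It was also lower for 7 of 25 cholesterol genes (9 without replicate 1) and 11 of 15 class II genes (5 without replicate 1). MX1 differed by 5.91 with all arrays and 5.75 without replicate 1, and GADL1 by -4.56 and -6.19. Part of the GADL1 difference was a rise in nontargeting cells, of 1.92 with all arrays and 3.55 without replicate 1. That rise started from signals of 2.12 and 3.80 on replicates 2 and 3 at 48 h. Since both differences use the same knockdown arrays, they do not stand as separate evidence of the late change.

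In differentiation media, 734 genes were higher (4.64%) and 625 lower (3.95%) at 96 than at 48 h of ZNF148 siRNA. Of the rises in growth media 438 were also called there, 59.8% of the growth media set and 59.7% of the differentiation media set. Of the falls 245 were called there too, 69.6% and 39.2% of these sets, and 10 genes were called in opposite directions. No array is shared between the 2 changes. Across the tested genes they had a Pearson r of 0.72 and a Spearman rho of 0.65, given as a description because genes are not independent replicates and the arrays were normalized together.

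**Figure D5:**
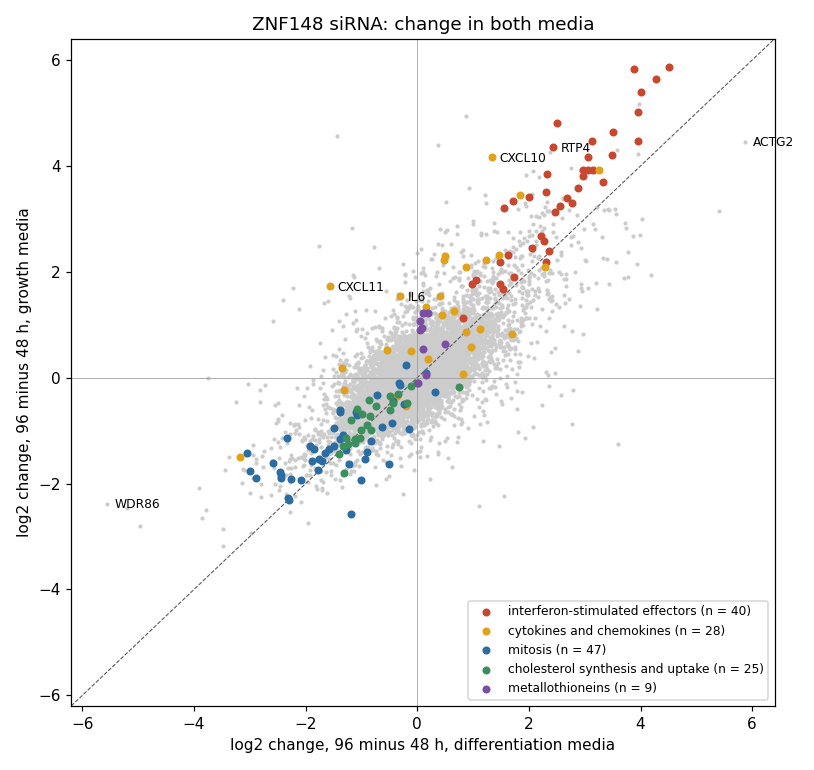
Log2 change between 96 and 48 h of ZNF148 siRNA in growth media (y axis) against differentiation media (x axis), 1 point per tested gene, with 5 lists in color and the dashed line of equal change. Most effector genes lie above the line, the metallothionein MT2A stands at 1.08 on the y axis and 0.05 on the x axis, and ACTG2 lies to the right of the line at 4.46 against 5.88.

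The test of the difference between media, on signed values, called 271 genes with a higher change in growth media (1.71%) and 94 with a lower one (0.594%). A gene that fell less in growth media counts as higher. Effectors were called higher in 38 of 40 in differentiation media with a median of 2.48, and 13 of the 40 had the larger change in growth media. RTP4 changed by 4.35 ± 0.13 in growth and 2.43 in differentiation media (difference 1.92, adjusted p = 0.000123), MX1 by 5.87 ± 0.21 and 4.51 (difference 1.35, adjusted p = 0.014). IRF7 changed by nearly the same amount in both, 3.22 ± 0.08 and 3.21, with a difference of 0.01 (SE 0.11). Effectors rose in both media, and part of the list rose further in growth media.

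Of the cytokines, 8 of 28 had the higher signed change in growth media. IL6 changed by 1.54 ± 0.16 in growth and -0.31 in differentiation media (difference 1.86, adjusted p = 0.000384), and CXCL11, an interferon-inducible chemokine, by 1.72 ± 0.51 and -1.57 (difference 3.30, adjusted p = 0.0138). CXCL11 was well above background on 1 of 3 growth media arrays at 48 h, and its call in growth media was lost when replicate 3 at 48 h, replicate 1 at 96 h or replicate 2 at 96 h was left out, and with normexp correction. ANGPTL4 changed by 2.80 ± 0.09 and 0.54 (difference 2.26, adjusted p = 6.17e-06). The metallothionein median was 0.11 in differentiation media, and MT2A, MT1B and MT1L had the larger change in growth media. MT2A changed by 0.05 there (difference 1.03, adjusted p = 0.000308).

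A smaller rise in growth media was tested for ACTG2, with 4.46 ± 0.09 against 5.88 (difference -1.42, adjusted p = 0.000105), and for GDF6, with 2.18 ± 0.12 against 3.56 (adjusted p = 0.000613). WDR86 fell less in growth media, with a change of -2.38 ± 0.58 against -5.55 (difference 3.17, adjusted p = 0.0302). Its signal in differentiation media at 96 h was low and variable, with a mean of 3.38 and an SD of 1.64, so the size of that fall is uncertain. HLA-DRA also fell less in growth media, with -2.08 ± 0.20 against -3.91 (adjusted p = 0.00177). For cholesterol genes no member differed between media by the call rule, and the medians were -0.72 and -0.89. For mitosis genes 1 member differed in each direction, and the medians were -1.34 and -1.38. SQLE had a difference of -0.02 (SE 0.15) and KIF20A of 0.03 (SE 0.20).

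Markers of other cell types gave 4 calls. Of the tested markers, THY1 of 8 for fibroblasts was called lower (-1.34 ± 0.15), CD163 of 5 for macrophages was called lower, TEK of 6 for endothelial cells was called higher (1.49 ± 0.18), MAP2 of 4 for neurons and glia was called higher (1.32 ± 0.16), and none of 4 for adipocytes or 7 for T and B cells was called. The mean log2 signal of the fibroblast list was 8.70 to 9.05 on the 48 h arrays and 8.83 to 9.09 on the 96 h arrays, that of the endothelial list 4.82 to 5.14 and 4.93 to 5.14, that of the adipocyte list 4.93 to 5.06 and 4.96 to 5.42, and that of the neuron and glia list 5.48 to 5.87 and 5.62 to 5.64. The mean of the macrophage list was 6.60 to 6.92 at 48 h and 6.16 to 6.25 at 96 h, and that of the T and B cell list 6.14 to 6.69 and 6.09 to 6.17. FABP4, LEP and PLIN1 of adipocytes, EMCN, ERG, KDR and TIE1 of endothelium, CD3G and MS4A1 of lymphocytes, S100B and SYP of neurons and glia and PI16 of fibroblasts were not well above background on any of the 6 arrays. The part of these genes in the late change was not tested.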

How the data were processed

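LHCN-M2 cells were transfected with ZNF148 or nontargeting siRNA, and RNA was hybridized to 1-color Agilent arrays. The authors deposited 1 scanner file per array with background-subtracted signal intensities (from Agilent Feature Extraction, whose headers give version 10.7.3.1) and a matrix of quantile-normalized log2 values, in which each deposited column correlated with its own array at no less than 0.995. No column went unused for want of a sample.

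Control spots (2075 of 62976) and outlier spots were left out, spots of a probe were averaged, and the log2 intensities of all 29 arrays were quantile-normalized together, as the study's methods did. Of 58201 probes 31104 had a current gene symbol (22439 genes). Probes well above background on at least 3 of the 6 arrays were tested (29395), and 45.0 to 50.8% of probes passed on the 48 h arrays and 48.8 to 55.5% on the 96 h arrays. The number of arrays limits the precision, and no spot was saturated. Correlations were 0.987 to 0.990 among the 48 h arrays, 0.995 among the 96 h arrays and 0.974 to 0.979 between the times, and no pair of arrays was identical.

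The main comparison used limma 3.58.1 in R 4.3.3 on the 15 ZNF148 siRNA arrays in 5 groups, and a call needed more than 2-fold change with an adjusted p (Benjamini-Hochberg) under 0.05. Errors after ± are limma standard errors of the log2 change, with n = 3 arrays per time. Comparisons with nontargeting siRNA used all 29 arrays in 10 groups, and 28 arrays without nontargeting replicate 1 at 48 h. A gene not well above background on any array of a time has only a bound: "at least N-fold" sets the mean of the bright arrays against the mean, over the dim arrays, of the higher of each array's lowest signal well above background and the gene's own signal. On simulated data 187 of 200 changed probes were recovered with 3 false calls among 29094. The planted changes were all well above 2-fold, and the noise was independent between probes and arrays. These figures therefore do not cover changes near 2-fold or effects of slides.

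Named genes are the 15 largest rises and falls well above background on all 6 arrays without overlap, up to 4 called members of each list with the largest change, members that define a list, and members not called. CCL2, CCL20, CXCL11, IL6, BIRC5, CCNB2, BAMBI, TGFBR3, SYNPO2 and MYOZ2 and the genes of the other observations were named after their values were seen. Some genes of these lists are not reported here. The genes, lists and comparisons were chosen with earlier results of these data known. Promoters came from RefSeq tables (GRCh38.p14). The alternatives were other background corrections and scalings, filters, fits, blocks, the methods' t-test and left-out arrays.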

Additional observations from a re-analysis of the deposited data

Results flagged for a closer look

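The late change differed between media in 271 genes with the higher signed change in growth media and 94 with the lower one, by limma's test of the difference. Of the 30 genes with the largest rises and falls, 10 were among them. MX1 differed by 1.35, MX2 by 1.37, OAS1 by 1.39, OAS3 by 1.34, IFI44L by 1.11 and RTP4 by 1.92, all with a larger rise in growth media. NRAP differed by 1.20 in the same sense and ACTG2 by -1.42, with a larger rise in differentiation media. GABRR1 differed by 1.30 and WDR86 by 3.17, as both fell less in growth media, with changes of -2.49 ± 0.09 against -3.79 for GABRR1 and of -2.38 ± 0.58 against -5.55 for WDR86. In differentiation media at 96 h the mean of WDR86 was 3.38 with an SD of 1.64, so the size of its fall there is uncertain.

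The late change differed from that of nontargeting cells in 575 genes with the higher signed change and 331 with the lower one under ZNF148 siRNA. Among effectors the difference was 5.91 for MX1, 5.85 for MX2, 5.32 for BST2, 5.29 for OAS1, 4.08 for OAS2, 4.06 for OAS3, 4.61 for EPSTI1, 4.43 for IFI6, 4.23 for ISG15, 4.12 for IFI44L and 3.77 for RTP4. CCL5 differed by 5.02, NRAP by 4.86, ACTG2 by 4.08 and CD24 by 1.95. Without nontargeting replicate 1 at 48 h these 15 differences lay between 1.70 and 5.81, with 4.45 for BST2, 4.65 for CCL5 and 3.89 for NRAP.

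Among the falls, GADL1 differed by -4.56, APOL5 by -4.34, HLA-DOA by -3.40, KCNF1 by -2.96, LINC03076 by -2.85, LINC01497 by -2.46, DLGAP5 by -1.88, KIF20A by -1.76, TPRG1-AS1 by -1.50 and PLAC8 by -1.24. Without nontargeting replicate 1 at 48 h the difference was -6.19 for GADL1, -5.85 for APOL5, -4.19 for KCNF1, -3.25 for HLA-DOA, -3.68 for LINC03076, -3.35 for LINC01497 and -1.82 for PLAC8. Calls for MAP1LC3C, CD163 and GABRR1 depended on that array. With it their differences were -2.34, -1.03 and -0.99, with adjusted p of 0.0684, 0.762 and 0.567, and none was called. Without it all 3 were called, at -3.59, -3.56 and -2.33. Some of the differences among the falls include a rise with nontargeting siRNA. Without that array the nontargeting change was called higher for GADL1 (3.55), APOL5 (3.32), KCNF1 (1.94) and CD163 (1.43). It was called higher for no other of the 15 largest falls. These rises started from low signals on replicates 2 and 3 at 48 h. They read 2.12 and 3.80 for GADL1, 2.29 and 2.48 for APOL5, 2.08 and 2.91 for KCNF1, and 2.28 and 2.80 for CD163. At 96 h the nontargeting arrays read 7.87 and 3.54 for APOL5, so its rise rested mainly on replicate 1.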

How the results depend on the processing

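ZNF148 was not called in any of the 21 alternatives, and over the 30 genes with the largest rises and falls 629 of 630 values kept direction and call, the exception being CD163 in the fit of all 29 arrays. No result reversed. With normexp correction, 375 genes were called higher and 179 lower, the difference between media was called in 123 and 47 genes, and that between siRNAs in 359 and 209. Without the 2-fold rule these were 3260 and 3119, 1385 and 859, and 1600 and 1606. With array weights 524 genes had the lower signed change with ZNF148 siRNA. Without nontargeting replicate 1 at 48 h the difference between siRNAs was called in 610 and 644 genes. Leaving out 1 array at a time gave 685 to 741 rises and 336 to 368 falls, 239 to 313 and 79 to 101 genes for the difference between media, and 455 to 610 and 280 to 644 for that between siRNAs. The titles number the 48 h arrays of ZNF148 siRNA in growth media 1 to 3 and the descriptions 3 to 5, and the title numbers were used. Same-numbered arrays did not deviate together (r of -0.067, 0.084 and 0.076), so the numbers did not pair them. With the replicate as a block 734 genes were higher and 349 lower, 259 and 91 for media, and 549 and 318 for siRNAs. With the slide as a block these were 734 and 337, 309 and 88, and 572 and 284. By scaling, 66.6 to 67.9% of calls were rises. Over the alternatives the mitosis genes called lower numbered 14 to 31 and the class II genes 5 to 11, and the cytokines called higher 9 to 15. Among single genes normexp correction also ended the calls of CDC25C, MKI67, FOXM1, LGALS3BP, MYOZ2, SYNPO2, IGFBP2, TEK, MAP2, CD34, CD55, CFB, KLF11 and MSC, and the fit of all 29 arrays those of ANKRD2, SMYD1, MYBPC1, CSRP3, CXCL11, COL19A1, CD36 and DLK1. Without replicate 3 at 48 h CHAC1 and CAMK2B fell under 2-fold. For calls that changed, the cause was not tested. Genes near background at 48 h are the ones that signal over background limits, and 3 arrays per time limit all tests.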

Other observations

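Several large changes lay outside the lists, and these genes were chosen after their values were seen. EDN1, the vasoconstrictor endothelin, went from 6.37, 6.38 and 6.39 at 48 h to 9.42, 9.54 and 9.68 at 96 h, a change of 3.16 ± 0.12 (adjusted p = 3.27e-09). All nontargeting arrays were below both sets, at 5.90, 5.33 and 5.45 and 5.37 and 5.27. CXCR4, the chemokine receptor, changed by 2.73 ± 0.13 and PTX3, a secreted pattern recognition protein, by 2.65 ± 0.10. HAS1, a hyaluronan synthase, changed by 2.76 ± 0.13, SLC2A5, the fructose transporter, by 3.15 ± 0.38 and MYLK3, the cardiac myosin light chain kinase, by 2.90 ± 0.11. Interferon-inducible genes were found among the unlisted rises too, such as BATF2 with 3.80 ± 0.11, HELZ2 with 3.15 ± 0.10, PARP10 with 2.78 ± 0.08 and CASP1, the inflammasome protease, with 2.31 ± 0.11.

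The lists that follow held 1 to 3 called genes each, beside 4.63% of all genes called higher and 2.23% lower. HSPB7, a muscle heat shock protein, changed by 2.13 ± 0.13 and UNC45B, a myosin chaperone, by -1.20 ± 0.06, the 2 called of 21 heat shock genes. CTSH, a cathepsin, was the 1 called of 28 lysosome genes, with 2.31 ± 0.10. Of 19 genes of the dystrophin complex 2 were called higher. Complement factor CFB changed by 1.81 ± 0.24, CD55, which protects cells from complement, by 1.18 ± 0.08 and C1S by 1.09 ± 0.09, 3 of 14 complement genes. Of 9 creatine genes 1 was called higher and 2 lower. CKMT2, the mitochondrial creatine kinase, changed by 1.51 ± 0.09, GATM, the first enzyme of creatine synthesis, by -1.75 ± 0.15 and CKB by -1.33 ± 0.07, calls that were lost in the fit of all 29 arrays, as was that of UNC45B. CD34, a progenitor surface marker, changed by -1.62 ± 0.30, the Notch target NRARP by -1.73 ± 0.09 and the repressor MSC by 1.23 ± 0.10. Among 21 hypoxia genes CA9, LOX and ADM were called, with 1.61 ± 0.37, 1.14 ± 0.09 and 1.01 ± 0.11. CA9 lost its call in the fit of the 6 arrays alone and with normexp correction, and ADM was under 2-fold in 6 alternatives. KLF11 was called among 15 GC-box factors, with 1.11 ± 0.07, and VLDLR and CHAC1 among 25 genes of the unfolded protein response, with 1.84 ± 0.10 and -1.05 ± 0.09.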
